A study of Caenorhabditis elegans with 2 samples.

Results

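The cytochrome P450 genes of *Caenorhabditis elegans* were taken as all genes whose WormBase symbol begins with cyp-. Cyclophilin genes (cyn-) and cytochrome c genes were left out. The rule found 80 genes among the 46904 listed in the deposited table, of which 74 are annotated as protein coding and 6 as pseudogenes. They belong to 15 numbered families, 43 of them lie on chromosome V, and each of the 80 had reads in one or both libraries. RNA came from whole N2 worms, the wild-type laboratory strain, that were raised from synchronized larvae on peptone-free plates with *Lactiplantibacillus plantarum* and 0.2 µl of live *Escherichia coli*. The *E. coli* was either the wild-type strain BW25113 or the *pdxH* mutant made from it, in which a kanamycin cassette replaces the gene for the oxidase that makes the active form of vitamin B6. The 2 groups are called the wild-type diet and the *pdxH* diet below. Worms of both were described as collected at the same stage, and their age is not given in the labels. The paper also reports that development arrested early on *L. plantarum* with this trace amount of the *pdxH* mutant. Whether the 2 libraries differed in growth or stage, and any part of this in the ratios below, was not tested. Each diet gave 1 library from many pooled worms, so no difference below has a replicate check and no p-value is attached to a diet. The libraries held 40707752 reads on the wild-type diet and 46372171 on the *pdxH* diet.

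Cytochromes P450 are heme-containing monooxygenases. They insert an oxygen atom into fatty acids, sterols, drugs and plant or bacterial toxins, with electrons that most of them receive from NADPH-cytochrome P450 reductase. In *C. elegans* the family grew by local gene duplication. Members of the cyp-14, cyp-33, cyp-34 and cyp-35 families belong to the CYP2 clan, in which many genes are expressed in the intestine and respond to xenobiotics. The cyp-13, cyp-25 and cyp-43 families belong to the CYP3 clan, and cyp-29, cyp-31, cyp-32, cyp-37 and cyp-42 to the CYP4 clan, which in mammals is known for fatty acid hydroxylation. No protein or promoter sequence of these genes was analysed here.

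A small number of cyp-35 genes dominated the family. Levels are given as reads per kilobase of exon, scaled to a library total of 1000000 reads (RPKM) and computed from recovered reads and annotated exon lengths so that genes can be compared. *cyp-35A2* (WBGene00015400, chromosome V, 7362319 to 7364182, in build ce11 like all positions here) stood at 526 RPKM on the wild-type diet and 666 on the *pdxH* diet. *cyp-35A3* (WBGene00019565, chromosome V, 4022609 to 4024482) stood at 484 and 603 RPKM. Both genes belong to a group known for induction by foreign compounds and for a role in fat storage. *cyp-35C1*, another gene inducible by xenobiotics, followed at 154 and 170 RPKM, and *cyp-35A4* at 121 and 134. These 4 genes were the only members above 100 RPKM on the wild-type diet, and the counting intervals of neighbors in this order did not overlap in either library. The first pair alone held 47.7% of all reads on the 80 genes on the wild-type diet and 52.2% on the *pdxH* diet.

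Below this group the levels were closer to each other. *cyp-25A3* was next at 61.6 and 75.8 RPKM. *cyp-33C9* (52.0 RPKM on the wild-type diet), *cyp-14A1* (51.3) and *cyp-33A1* (51.3) could not be ordered in that library, since their counting intervals overlapped. *cyp-13A5* and *cyp-33C8* followed there at 45.5 and 37.8 RPKM. The 10 most abundant genes of the 2 libraries shared 9 names. The exception was *cyp-13A5*, which stood at rank 13 on the *pdxH* diet at 29.8 RPKM, while *cyp-34A9* entered at 36.7. These ranks are not exact. On that diet the interval of *cyp-13A5* overlapped those of *cyp-13B1* and *cyp-14A4*, and that of *cyp-34A9* overlapped that of *cyp-31A1*. At the other end, 18 members were under 1 RPKM in both libraries. The median over the 74 coding genes was 5.21 RPKM on the wild-type diet and 4.94 on the *pdxH* diet.

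**Figure D1:**
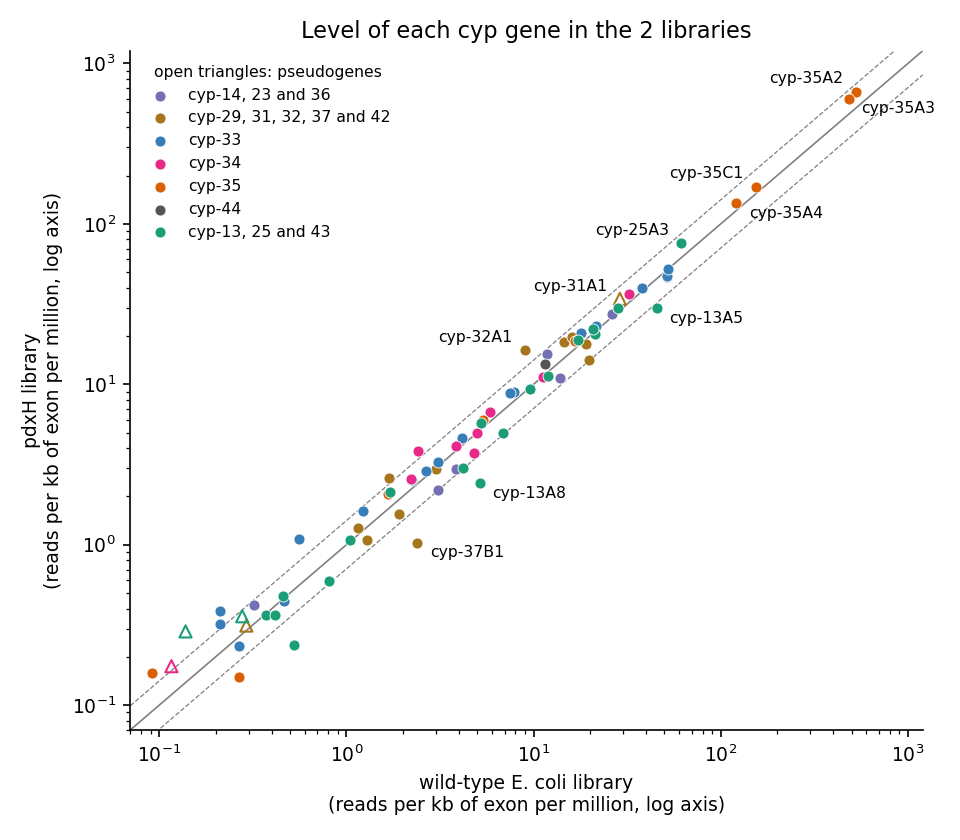
Level of each cyp gene on the wild-type diet (horizontal) and on the *pdxH* diet (vertical), both in RPKM on log axes. Each point is 1 gene in 1 library per diet, colors mark family numbers, open triangles mark pseudogenes, the solid line marks equal levels and the dashed lines a log2 ratio of 0.5 either way. The 2 genes without reads in the wild-type library, *cyp-35B3* and *cyp-35D2*, are not drawn. *cyp-35A2* and *cyp-35A3* sit far above the rest. The points outside the dashed lines include *cyp-32A1*, *cyp-13A5*, *cyp-13A8* and *cyp-37B1*, whose counting intervals lie wholly past 0.5. The other genes called below and some genes with few reads lie outside the lines as well.

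Diets were compared gene by gene through a log2 ratio, in which the deposited *pdxH* value plus 1 is divided by the wild-type value plus 1. A gene was called when this ratio was past 0.5 in size and its 95% interval left out 0. The interval covers counting error only. By this rule 4 of the 80 members were higher on the *pdxH* diet, against 3.92% of the 23141 genes with reads, and 4 were lower, against 6.69%. Of the 68 members with 50 or more reads, the same 4 were higher, against 5.01% of all genes at that depth, and the same 4 were lower, against 9.06%. An exact binomial test between the libraries, as an alternative, also called 4 higher and 4 lower members, against 2.93% and 5.88% of genes. The share of called members was thus near the background in both directions. The ratio was within 0.5 either way in 64 members, against 62.7% of all genes, and in 60 of the 68 deeper ones, against 84.6%. The 4 higher genes were *cyp-32A1*, *cyp-33C2*, *cyp-34A7* and *cyp-29A4*, and the 4 lower genes were *cyp-13A5*, *cyp-13A8*, *cyp-25A1* and *cyp-37B1*. Only *cyp-32A1*, *cyp-13A5*, *cyp-13A8* and *cyp-37B1* had intervals lying wholly past 0.5. That is 1.25% of members on the higher side and 3.75% on the lower side, against 0.821% and 4.06% of all genes. Where a coefficient of variation of 0.2 between cultures was assumed on top of the counting error, *cyp-32A1*, *cyp-13A8* and *cyp-37B1* were left. These were 1.25% of members higher and 2.5% lower, against 0.86% and 3.65% of all genes.

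Smaller shifts were mostly upward. The ratio was above 0 in 52 of the 80 members (65.0%), against 50.4% of all genes with reads, and in 43 of the 68 members with 50 or more reads, against 52.1% of all genes at that depth. The median over the 80 members was 0.12, with an interquartile range from -0.09 to 0.30, beside a median of 0.0042 over all genes with reads. The counting interval lay above 0 for 24 members, below 0 for 13, and held 0 for 43. The share of all genes with such intervals was not computed, so these counts are not read as a trait of the family. Reads on the 80 genes summed to 136780 and 179019, or 3360 and 3860 reads when scaled to a total of 1000000 (RPM, not divided by length), a ratio of 1.15. *cyp-35A2* and *cyp-35A3* supplied 82.5% of that gain. Without this pair the 72 other coding genes had 1717 and 1796 RPM, a ratio of 1.05. In RNA from whole worms, a different number of cells of a type and a different amount of RNA per cell cannot be told apart.

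**Figure D2:**
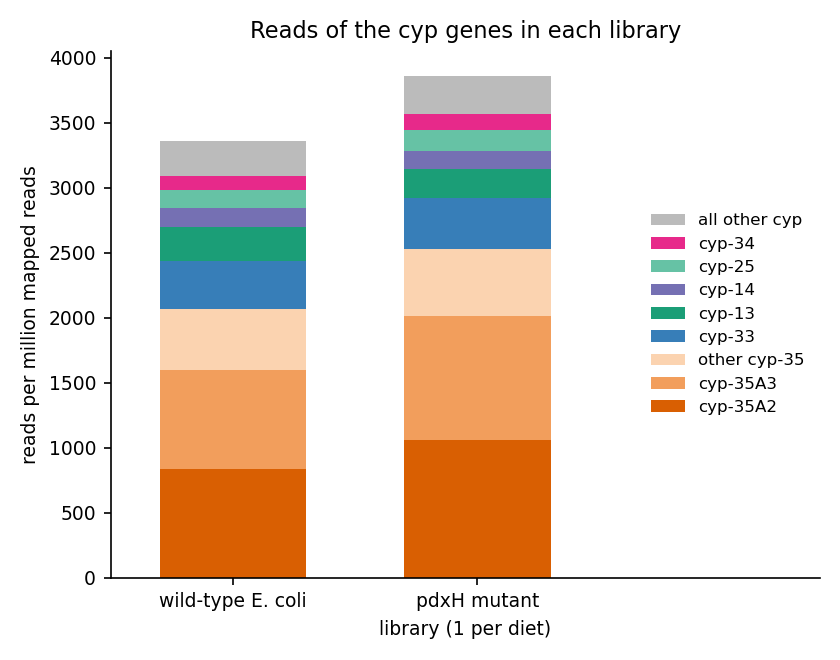
Reads in RPM on the 80 cyp genes in each of the 2 libraries, stacked by gene or family. The bar reaches 3360 on the wild-type diet and 3860 on the *pdxH* diet, and most of the added height lies in the blocks of *cyp-35A2* and *cyp-35A3*.

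Of the 11 cyp-35 genes, 10 had a ratio above 0 and none was called. The share above 0 over all genes with reads, 50.4%, stands beside this and each family count below. The 10 include *cyp-35B2*, *cyp-35B3* and *cyp-35D2*, which had at most 12 reads in a library and intervals that held 0. Their RPM values summed to 2067 on the wild-type diet and 2530 on the *pdxH* diet. *cyp-35A2* had 33976 and 49034 reads, a log2 ratio of 0.34 (95% interval 0.32 to 0.36). *cyp-35A3* had 31236 and 44404 reads, a ratio of 0.32 (0.30 to 0.34). Both were higher on the *pdxH* diet by more than the counting error and by less than the threshold. *cyp-35A4* had 7650 and 9659 reads (ratio 0.15), and *cyp-35C1* had 9606 and 12113 (ratio 0.15). Both intervals, 0.11 to 0.19, lay below those of *cyp-35A2* and *cyp-35A3*, so these ratios differed by more than the counting error. Whether that gap would hold in other cultures is not known. *cyp-35A5* had 1174 and 1501 reads and a ratio of 0.17 (0.06 to 0.28). *cyp-35A1*, which lies beside *cyp-35A2* on the same strand, had 105 and 148 reads and a ratio of 0.31 (-0.06 to 0.68). *cyp-35B1*, known as a gene downstream of the transcription factor DAF-16, had 359 and 459 reads, a ratio of 0.17 whose interval held 0.

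The remaining cyp-35 genes were near the limit of detection. *cyp-35D1*, which encodes an enzyme that metabolizes the drug thiabendazole, had 17 and 11 reads, a ratio of -0.77 (-2.06 to 0.36). It was the only cyp-35 gene below 0. *cyp-35B2* had 6 and 12 reads, *cyp-35B3* had 0 and 1, and the pseudogene *cyp-35D2* had 0 and 2. At up to 3 reads no fold is given for the last 2 genes. How reads that fit more than 1 of the similar cyp-35A genes were counted is not given in the sources used here, and a split among these paralogs could change their single values.

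The cyp-33 family was the largest, with 18 genes, and 15 of them had a ratio above 0, with a median of 0.15. Only *cyp-33C2* (WBGene00016697, chromosome V, 2183488 to 2186599) was called. It had 36 reads on the wild-type diet and 80 on the *pdxH* diet, a log2 ratio of 0.95 (0.38 to 1.57). This gene was weakly expressed, at 0.558 and 1.09 RPKM. The ratios of the abundant members were close to 0. *cyp-33C9* had 3418 and 3932 reads (ratio 0.01), *cyp-33C8* had 2562 and 3065 (0.07), and *cyp-33A1* had 3324 and 3486 (-0.12, interval -0.19 to -0.05). *cyp-33E2*, whose product makes eicosanoids from eicosapentaenoic acid, had 1268 and 1676 reads, a ratio of 0.21 (0.11 to 0.32). Its neighbors *cyp-33E1* and *cyp-33E3* stood at 0.15 and 0.18. *cyp-33C1* and *cyp-33C11* had ratios of 0.58 and 0.83 on 15 reads each on the wild-type diet, and both intervals held 0. The cyp-33D genes, *cyp-33D1* with 201 and 244 reads and *cyp-33D3* with 172 and 212, stood at 0.09 and 0.11.

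Among the 9 cyp-34 genes, 6 had a ratio above 0 and the median was 0.18. *cyp-34A7* (WBGene00015042, chromosome V, 3961681 to 3963815) was called higher, at 155 against 281 reads, a log2 ratio of 0.67 (0.38 to 0.96). *cyp-34A10*, which lies further along the same cluster, had 309 and 273 reads and a ratio of -0.37 (-0.61 to -0.13). *cyp-34A9*, also known as a gene downstream of DAF-16 and the most abundant of the family, had 2255 and 2905 reads, a ratio of 0.18 (0.10 to 0.26). The 7 coding members other than *cyp-34A7* thus lay between -0.37 and 0.21.

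The other CYP2 clan genes were mixed. Of the 5 cyp-14 genes, 3 had a ratio below 0. *cyp-14A1* had 3204 and 3313 reads (ratio -0.14, -0.21 to -0.07), *cyp-14A2* had 192 and 156 (-0.49, -0.80 to -0.18), and *cyp-14A5* had 879 and 793 (-0.34, -0.48 to -0.20). Each of these 3 intervals lay below 0, while those of *cyp-14A4* (ratio 0.07) and *cyp-14A3* (ratio 0.38, with 20 and 30 reads) held 0. *cyp-23A1* had 270 and 235 reads and a ratio of -0.39 (-0.65 to -0.13). *cyp-36A1*, which acts downstream of the oxygen-sensing EGL-9 pathway in the control of behavior, had the highest ratio of this group with an interval above 0. It had 836 and 1249 reads, a ratio of 0.39 (0.26 to 0.52), and its exons overlap by 147 bases those of *figo-1* on the opposite strand (1858 and 2128 reads).

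The cyp-13 family held 2 of the 4 genes called lower. Of its 14 genes, 8 had a ratio below 0, beside 49.6% of all genes with reads that were not above 0, and the family median was -0.04. All 8 belong to the 12 genes of cyp-13A, whose RPM values summed to 213 on the wild-type diet and 178 on the *pdxH* diet. *cyp-13A5* (WBGene00011672, chromosome II, 9798277 to 9800362) had 3085 and 2300 reads, a log2 ratio of -0.61 (-0.69 to -0.53). It alone made up 73.5% of the difference in the cyp-13A sum. It was the only one of the 10 most abundant P450 genes that was called. *cyp-13A8* (WBGene00011674, chromosome II, 9805600 to 9807569) had 336 and 178 reads, a ratio of -1.10 (-1.37 to -0.84), 2.14-fold lower on the scale of the value plus 1. *cyp-13A7* was just short of the threshold, with 452 and 372 reads and a ratio of -0.47 (-0.67 to -0.27). *cyp-13A12*, which is known for its part in the behavioral response to reoxygenation and lies on chromosome III, had 295 and 241 reads and a ratio of -0.48 (-0.73 to -0.23). In contrast, *cyp-13A2* (1963 and 2149 reads, ratio -0.06), *cyp-13A6* (1489 and 1813, ratio 0.10) and *cyp-13B1* (1898 and 2293, ratio 0.08) had intervals that held 0. So did *cyp-13A10* (815 and 874 reads, ratio -0.09) and *cyp-13A1* (123 and 175, ratio 0.32), while *cyp-13A3*, *cyp-13A4*, *cyp-13A11* and the pseudogene *cyp-13A9* had at most 55 reads in a library.

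Within the cyp-25 family the most abundant and the least abundant genes of one cluster went opposite ways. *cyp-25A3* (WBGene00014697, chromosome III, 3837538 to 3839735) had 4450 and 6240 reads, a log2 ratio of 0.30 (0.24 to 0.36). *cyp-25A1* (WBGene00007963, chromosome III, 3832591 to 3834586) had 35 and 18 reads, a ratio of -1.11 (-2.05 to -0.29). The latter call rests on few reads, as its wide interval shows. *cyp-25A2*, which lies between them, had 609 and 682 reads and a ratio of -0.02 (-0.18 to 0.14). *cyp-25A4*, the fourth gene there, had 358 and 448 reads and a ratio of 0.14 (-0.07 to 0.34). *cyp-43A1*, the single member of its family, had 1192 and 1482 reads and a ratio of 0.13 (0.02 to 0.24).

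**Figure D3:**
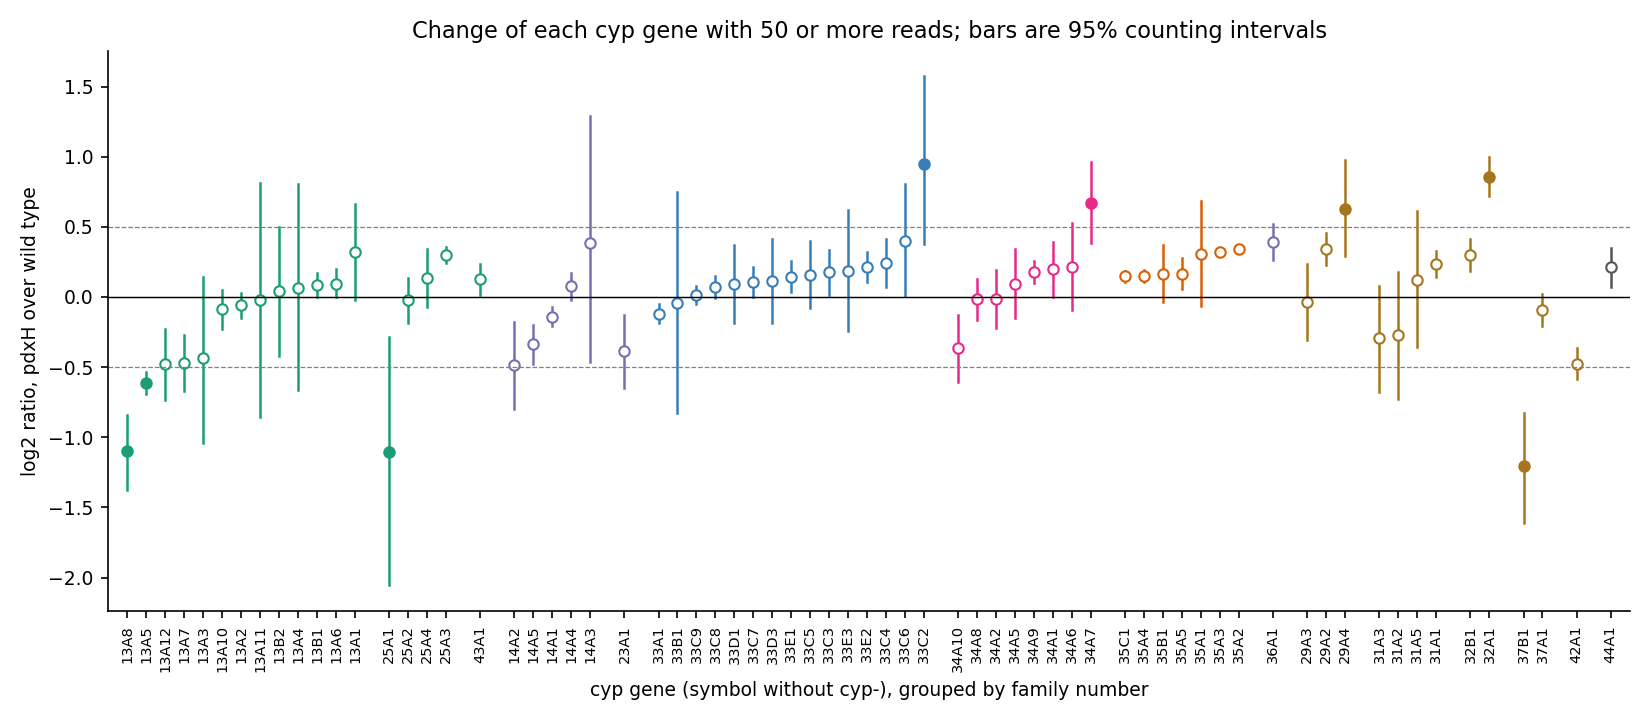
Log2 ratio (*pdxH* over wild type) of the 68 cyp genes with 50 or more reads in the 2 libraries together, grouped by family number and ordered within each. Circles are ratios with a pseudocount of 1, vertical lines are 95% counting intervals and dashed lines mark 0.5 either way. Filled circles are the 8 called genes, and the cyp-35 genes lie between 0.15 and 0.34.

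The CYP4 clan held the lowest ratio of the called genes, that of *cyp-37B1*, and the call with the most reads on the higher side, *cyp-32A1*. *cyp-32A1* (WBGene00016147, chromosome V, 7781811 to 7784594) had 618 reads on the wild-type diet (exact Poisson interval 570 to 669) and 1277 on the *pdxH* diet (1208 to 1349). Its log2 ratio was 0.86 (0.72 to 1.0), or 1.81-fold higher on the same scale. *cyp-37B1* (WBGene00009226, chromosome V, 16278116 to 16280616) had 169 reads (144 to 196) and 83 reads (66.1 to 103), a ratio of -1.20 (-1.61 to -0.83), or 2.30-fold lower. Its exons share 69 bases with F28G4.2 on the opposite strand, itself at 79 and 30 reads. The library kit is not stated to keep strand, so reads in that stretch cannot be assigned to one or the other gene. The related genes of both families had smaller ratios. *cyp-32B1* had 1081 and 1512 reads (ratio 0.30, 0.18 to 0.41), and *cyp-37A1* had 1218 and 1300 (ratio -0.09, -0.21 to 0.02).

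*cyp-29A4* (WBGene00007140, chromosome V, 9654755 to 9658120) was called higher as well. It had 115 and 203 reads, a log2 ratio of 0.63 (0.29 to 0.97). *cyp-29A2* had 1023 and 1476 reads and a ratio of 0.34 (0.22 to 0.46). *cyp-29A3*, which like *cyp-33E2* is known to make eicosanoids, had 214 and 238 reads and a ratio of -0.03, an interval that held 0 (-0.31 to 0.24). *cyp-42A1* had 1474 and 1207 reads and a ratio of -0.48 (-0.59 to -0.37), just short of the threshold. *cyp-44A1*, the mitochondrial type P450 of the worm, had 727 and 959 reads and a ratio of 0.21 (0.07 to 0.35).

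A pseudogene was the most abundant cyp-31 gene. *cyp-31A1* (WBGene00000374, chromosome IV, 9101773 to 9103851) had 1634 reads on the wild-type diet and 2195 on the *pdxH* diet, or 28.9 and 34.1 RPKM, which placed it 12th and 11th among the 80 genes. By counting intervals it could not be ordered against *cyp-13B1* on the wild-type diet or *cyp-34A9* on the *pdxH* diet. Its log2 ratio was 0.24 (0.14 to 0.33). The coding relatives *cyp-31A2* and *cyp-31A3*, which are needed for the lipid layer of the eggshell, had 86 and 81 reads and 124 and 115 reads. They stood between 1.07 and 1.91 RPKM, with ratios of -0.27 and -0.29 whose intervals held 0. The 5 other pseudogenes had at most 25 reads in a library. Each of the 6 had a ratio above 0, beside 50.4% of all genes with reads, but the intervals of these 5 held 0. Reads of *cyp-31A1* that also fit its relatives cannot be told apart from its own, and no overlapping gene was found in the annotation.

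Neighbors in a cluster did not all shift the same way. In all, 36 of the 80 members lay in 6 clusters of at least 3 genes, each within 20 kb of the next. The largest cluster, on chromosome V from 3936326 to 3972991, holds 10 genes of cyp-35 and cyp-34 in 36.7 kb, and 8 of them had a ratio above 0. The second, on chromosome II from 9779181 to 9807569, holds 9 cyp-13A genes, of which 4 had a ratio above 0 and 5 below. There *cyp-13A5* and *cyp-13A6*, side by side on the same strand, stood at -0.61 and 0.10, with intervals that did not overlap. In the cluster of 5 cyp-33C genes on chromosome V from 2236140 to 2252591, all 5 ratios lay above 0, between 0.11 and 0.40.

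**Figure D4:**
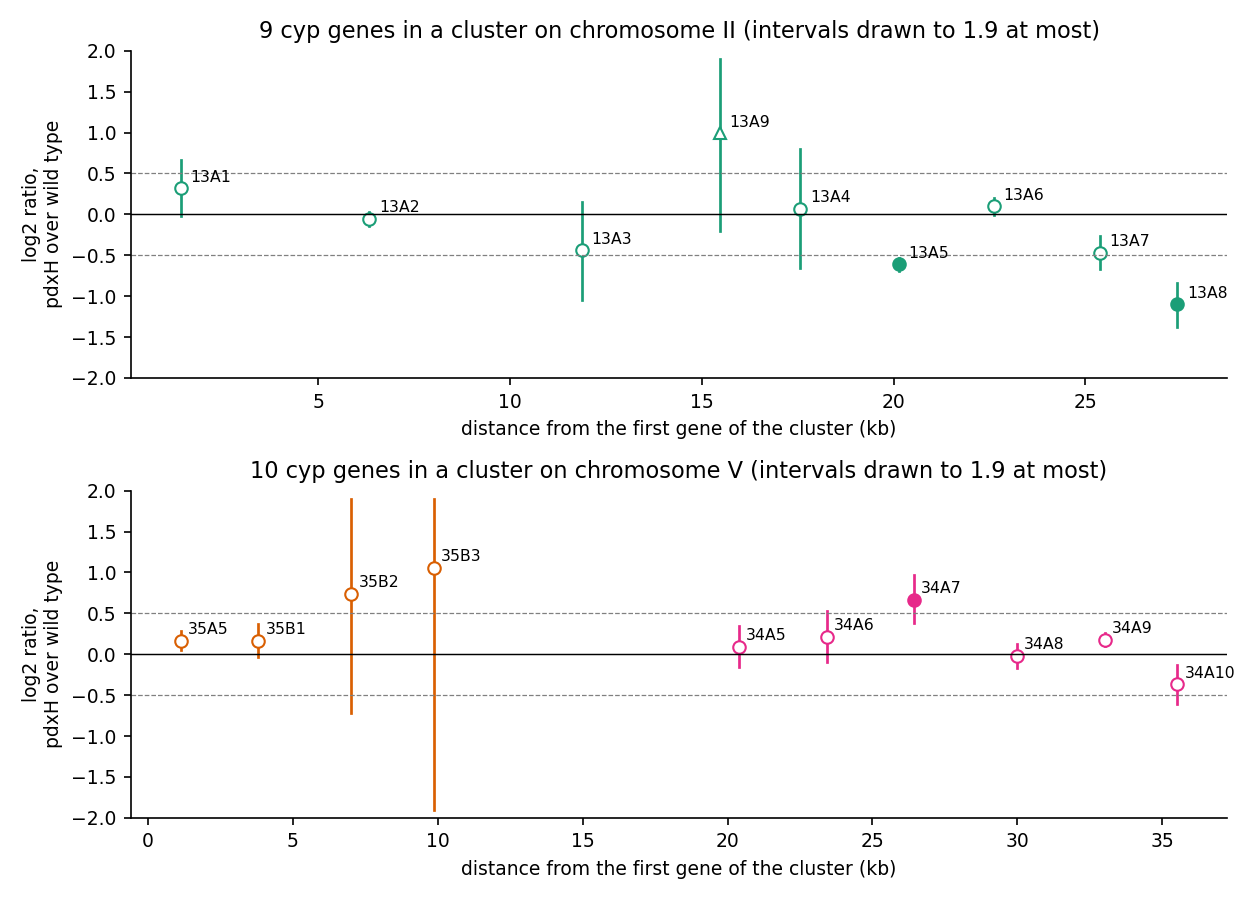
Log2 ratio (*pdxH* over wild type) of the genes in the cyp-13A cluster on chromosome II (top) and in the cyp-35 and cyp-34 cluster on chromosome V (bottom), against the distance in kb from the start of the first gene. Lines are 95% counting intervals, drawn to 1.9 at most, filled symbols are called genes and the triangle is a pseudogene. *cyp-13A5*, *cyp-13A7* and *cyp-13A8* sit below *cyp-13A2*, *cyp-13A4* and *cyp-13A6*, which lie near 0. *cyp-13A3* (-0.44) is about level with *cyp-13A7*, but its wide interval holds 0. *cyp-13A1* (0.32) and the pseudogene *cyp-13A9* (0.99) lie higher, with intervals that hold 0. In the lower panel *cyp-34A7* sits above the other cyp-34 genes.

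By clan, a grouping made after the values were seen, the CYP2 genes had a ratio above 0 in 34 of 45 cases (median 0.17), the CYP3 genes in 10 of 21 (median -0.02) and the CYP4 genes in 7 of 13 (median 0.10). Of these, 2 CYP2 genes and 2 CYP4 genes were called higher, and 3 CYP3 genes and 1 CYP4 gene were called lower, against the 3.92% and 6.69% of all genes given above. These counts are too small to set one clan apart from another.

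Genes that serve P450 enzymes were read beside the family. *emb-8*, the P450 reductase, had 23612 and 27105 reads, a ratio of 0.01 (interval -0.01 to 0.04). The cytochrome b5 genes *cytb-5.1* and *cytb-5.2* had ratios of 0.25 and 0.42. Of 8 genes of heme transport and handling, 7 had a ratio above 0 with a median of 0.20, and 1 was called. This was *hrg-2*, an epidermal heme protein gene with 40218 and 71872 reads and a ratio of 0.65 (0.63 to 0.67). Over all genes with reads, 50.4% had a ratio above 0, 3.92% were called higher and 6.69% lower. These short lists were not tested against those shares. Of 16 genes for transcription factors and other regulators, 13 had a ratio above 0, the median was 0.14 and none was called. They include *ahr-1*, the aryl hydrocarbon receptor, at 0.42 (147 and 224 reads), the highest of the 16. *nhr-8*, a nuclear receptor for xenobiotic resistance, stood at 0.19. The 3 below 0 were *nhr-86* (-0.09), *nhr-239* (-0.04) and *elt-2* (-0.06), with intervals that held 0. *elt-2* is also among the intestinal markers below. *daf-9*, a P450 that makes the steroid hormone dafachronic acid and carries no cyp- symbol, stood apart from most cyp- genes and was called lower. It had 997 and 688 reads, a ratio of -0.72 (-0.87 to -0.58).

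Tissue markers, which check the labelled whole worms, had reads from every tissue listed. The 10 intestinal markers, such as *ges-1* and *vha-6*, were detected in both, and 9 of them had a ratio below 0, with a median of -0.20 and 5639 and 4638 RPM in sum. Of the 10, 1 was called lower, *act-5*. Of the 8 epidermal markers 7 had a ratio below 0 and 4 were called lower (median -0.63, 1779 and 1019 RPM). All 8 neuronal markers had a ratio above 0 and none was called (median 0.21, 1157 and 1424 RPM). All 8 body wall muscle markers had a ratio below 0 and none was called (median -0.17, 11716 and 10270 RPM). Of the 8 germline markers 7 had a ratio below 0, and 3 were called lower and 1 higher (median -0.47, 380 and 268 RPM). The higher call, *nos-2*, had 2 and 13 reads, near the limit of detection. Beside these counts, 3.92% of all genes with reads were called higher and 6.69% lower, and 50.4% had a ratio above 0. No marker was at 0 in either library. Their part in the values of the P450 genes was not tested.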

How the data were processed

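The authors trimmed reads with Trimmomatic, mapped them with STAR 2.5.3a to ce11, counted them by gene with HTSeq and ran GFOLD 1.1.4. The deposited signal values are named RPKM but used 1 length of 20 bases for every gene, so they are reads scaled by library total. The deposited fold change, GFOLD and error-rate columns hold the authors' comparison and were not used. A single read is worth 1.23 on the wild-type diet and 1.08 on the *pdxH* diet, which gave back the reads. Of values above 0, 97.8% and 97.6% came out within 0.02 of a whole number.

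Symbols came from the gene table. The 6 pseudogenes carry cyp- symbols in RefSeq at identical WBcel235 positions, the assembly that ce11 denotes. Exon lengths came from Ensembl release 115. Intervals of a ratio are exact Clopper-Pearson 95% intervals and cover counting error only. An exact binomial test (Benjamini-Hochberg adjusted p of 0.05), which compares the 2 libraries and not the diets, called 677 genes higher and 1360 lower past 0.5. The calling rule was also run on simulated reads with counting error only and with changes larger than those of the called members. That simulation held no variation between cultures, so it cannot check the calls against such variation. Python 3.11.15 and SciPy 1.17.1 were used.

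Genes named are every called member, the 10 with the highest level, members with a described role, and others singled out after their values were seen. Members and lists were chosen with earlier results of these data known.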

Additional observations from a re-analysis of the deposited data

How the results depend on the processing

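No paired analysis was possible because neither diet has more than 1 library, and none could be left out. Pseudocounts of 0.1 and 10, centring on the median of genes with 50 or more reads (0.013), a filter of 50 reads and the exact binomial test each called the same 4 higher and 4 lower members. The family median stayed between 0.10 and 0.12. The number of higher members, 4, became 0 with a threshold of 1, 11 without the requirement on the interval, 1 with intervals wholly past 0.5 and 1 with an assumed coefficient of variation of 0.2. Over all genes, the share called higher was 1.19%, 17.8%, 0.821% and 0.86% under these settings in the same order. These settings changed the count by their construction. The number of lower members, 4, became 2 with the assumed variation, against 3.65% of all genes. It was 3 with a threshold of 1, 5 without the requirement on the interval and 3 with intervals wholly past 0.5. These were 3.75%, 6.25% and 3.75% of members, against 3.45%, 19.4% and 4.06% of all genes called lower. None of the 80 members changed sign under these pseudocounts or the centring, and 5 calls were lost with the assumed variation. The variation between cultures is not known, and members under 50 reads can hide a change of the size called here.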
